A study of Homo sapiens with 6 samples.

Results

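The genes described here are the ligands and receptors of the tumour necrosis factor (TNF) superfamily, taken as every gene of the deposited count table whose symbol begins with Tnfsf or Tnfrsf together with the family members that carry other names (Tnf, Lta, Ltb, Ltbr, Fas, Fasl, Cd40, Cd27 and Ngfr). Of the 22989 genes in the table, 41 met this rule. They comprised 15 ligand genes, 25 receptor genes and Tnfsf13os, a transcript named for the strand opposite Tnfsf13. Cd70 and Cd40lg, which the rule also names, were not analysed here.

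RNA was sequenced from 3 libraries labelled LINC00115 KD and 3 labelled WT, the control, all described as paclitaxel (PTX)-resistant MDA-MB-231 breast cancer stem cells (BCSC). This human line is classed as triple-negative breast cancer. By the paper's account, the cells of both groups had been made resistant to PTX, and the BCSC were sorted for high aldehyde dehydrogenase activity. The identity of the cells rests on the labels and the paper and was not tested. Tnfrsf23, whose symbol matches no human symbol in the tables used, had 2126 to 5754 counts per library. LINC00115 is a long non-coding RNA, and in the KD group it was targeted with a short hairpin RNA (shRNA) that was delivered with a virus and selected with puromycin. The comparison asks what changes in BCSC when LINC00115 is depleted. The labels call the control wild type where the paper writes of a control shRNA, so an effect of the vector and an effect of the depletion cannot be told apart. The labels do not say whether the libraries of a group came from separate cultures, so p-values measure only the spread between these libraries.

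The libraries held between 36979221 and 38799331 counts. The symbols of the table are written in the style of mouse genes although the labels give human cells. LINC00115 itself was not analysed here, so the depletion was not checked and each direction rests on the labels. Of the 13 markers chosen for the labelled cells, Vim, Cd44, Krt8 and Krt18 had at least 4856 counts in every library, whereas Epcam had at most 5 counts and Aldh1a3 at most 4. The HER2 gene Erbb2 had 592 to 689 counts in the control and 1029 to 1061 in the KD libraries, and the oestrogen receptor gene Esr1 had 24 to 29 and 82 to 105. Cdh1 had 1 to 3 counts in the control and 22 to 31 in the KD libraries, and Aldh1a1 had 8 to 17 and 39 to 52. Krt5 had 92 counts in control replicate 3 and 0 in the other libraries, and Krt14 had 192 counts there against 7 to 31 elsewhere. No family member changed its call when that library was left out.

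Markers of other tissues were also read, where over all genes tested 37.8% had all KD values above and 37.8% all KD values under the control values. Of 10 lung epithelial markers, 10 lay above, with a summed level of 73.5 to 83.7 against 1.78 to 2.07 normalized CPM (a gene's counts per 1000000 of the scaled library total). Scgb1a1, Sftpc and Sftpa1 led them with 1516 to 1843, 520 to 589 and 156 to 170 counts in the KD libraries and 0 in each control. Of 10 kidney tubule markers 8 lay above and 1, Cubn, under, at 27.9 to 31.5 against 9.37 to 9.81 CPM. Most of the control sum was Cubn (8.28 CPM against 6.08), while Kap, Slc34a1 and Acsm2 had at most 1 count in a control library and at least 107 in each KD library. Of 12 endothelial and fibroblast markers 2 lay above and 3 under, at 135 to 138 against 175 to 194 CPM. The endothelial cadherin Cdh5 had 5 to 14 counts in the control and 2136 to 2243 in the KD libraries, whereas Pdgfra was at 178 and 74.5 CPM and Dcn at 3.93 and 1.62 CPM. Of the other endothelial markers, Pecam1 had 6 to 11 counts in the control and 7 to 19 in the KD libraries, and Vwf 11 to 20 and 10 to 19. Kdr had at most 1 count in a control library and 2 to 10 in the KD libraries, and Tek had at most 2 counts in any library. In read counts, 4 of the 16 leukocyte markers analysed lay above (Lyz2, Cd74, S100a8 and S100a9) and 0 under, at 145 to 160.2 against 72.6 to 86.4 CPM. In normalized CPM, the measure of the shares over all genes, Csf1r also lay under, with at most 3 counts in any library. Lyz2 was at 0.796 and 6.59 CPM and S100a8 at 33.0 and 95.2 CPM. Ptprc, which encodes CD45, had 5 to 12 counts in the control and 8 to 13 in the KD libraries, and Cd3e, a T cell receptor subunit, had 0 in all 6. The part of these RNAs in the results on the family was not tested. In bulk RNA, a change in the number of cells of a type, up or down, and a change in RNA per cell cannot be told apart.

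TNF superfamily ligands are mostly trimeric membrane proteins, some of them released by cleavage, and they act by clustering receptors on the target cell. Receptors with a cytoplasmic death domain recruit adaptors such as Tradd and Fadd and can lead to caspase activation. The other signaling receptors bind Traf proteins and activate NF-kB and MAP kinases. Decoy receptors bind ligand without transmitting a complete signal. In breast and other carcinomas the family is known both for tumour cell killing, through TRAIL and Fas ligand, and for inflammatory survival signaling through TNF.

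Of the 41 genes, 22 passed the expression filter and were tested, 6 ligands and 16 receptors, of which 1 (Tnfsf18) passed it through the KD group alone. By the thresholds of the study (adjusted p under 0.05, change of more than 2-fold), 5 were called lower in the KD libraries (Tnfrsf9, Tnfsf9, Tnf, Cd40 and Tnfrsf23) and 3 were called higher (Tnfsf10, Tnfsf18 and Tnfrsf12a). The call of Tnfsf18 is not independent of the filter, which it passed because of its KD counts. Over all 13497 genes tested, 9.98% were called lower and 10.2% higher. Without a fold threshold 11 of the 22 members were lower and 5 higher at an adjusted p under 0.05, where the share of all genes was 36.7% in each direction. The median log2 fold change of the members tested was -0.20, against -0.01 over all genes tested, and the median size of the change was 0.63 against 0.45 on the log2 scale. All adjusted p-values are from edgeR's quasi-likelihood test, adjusted after Benjamini-Hochberg across all genes tested, and a log2 fold change is KD over control with its standard error (SE).

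**Figure D1:**
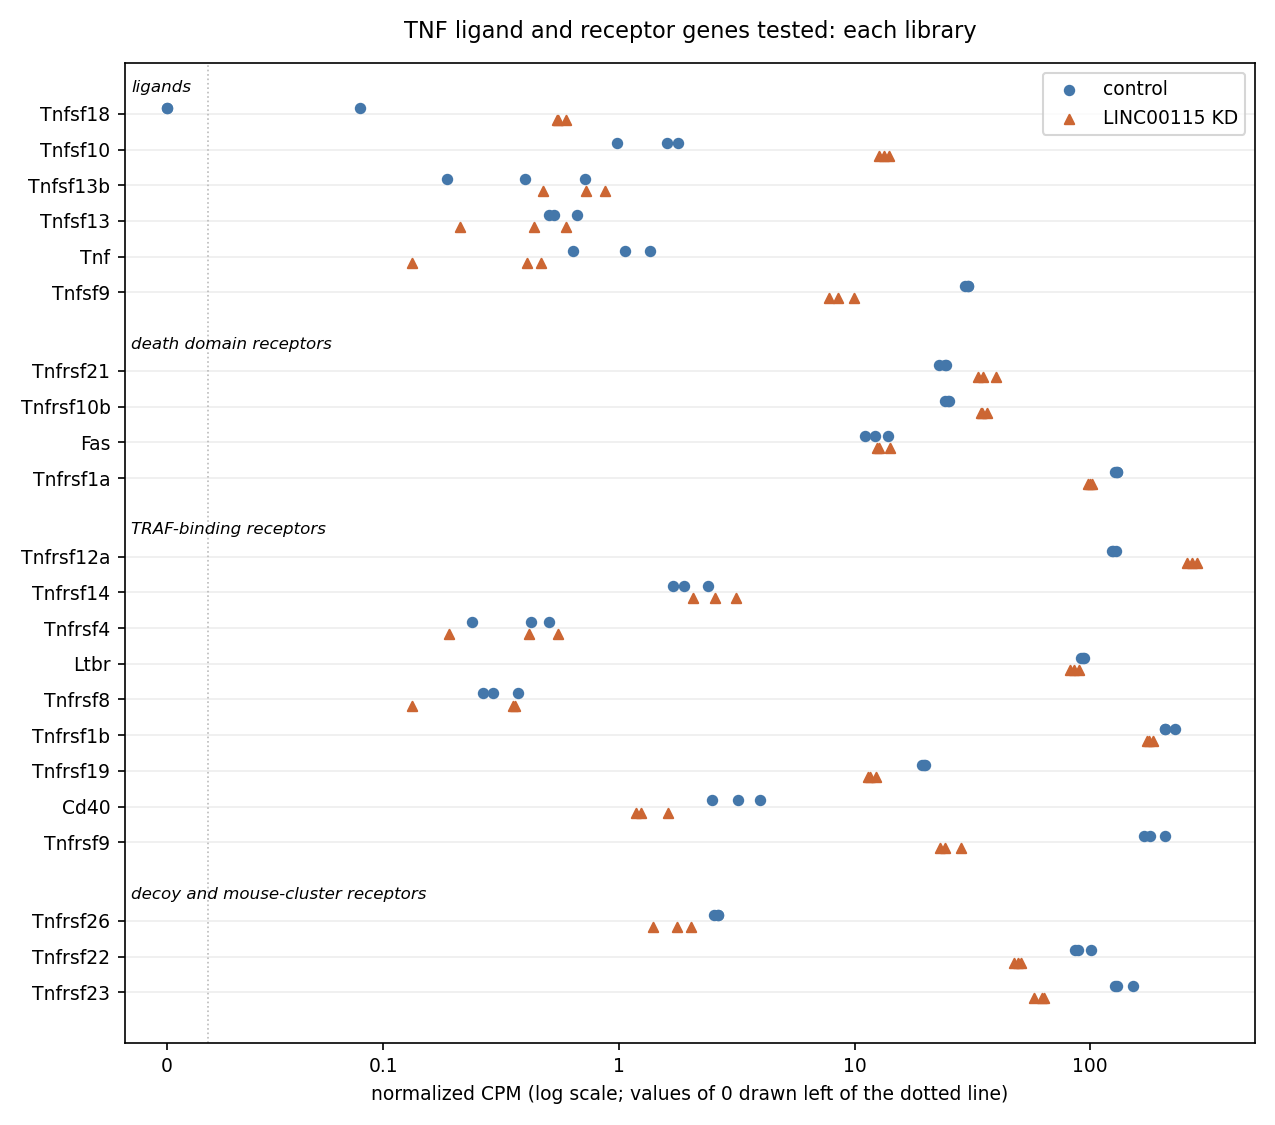
Normalized CPM on a log axis of the 22 tested TNF ligand and receptor genes in each library, with control as circles and LINC00115 KD as triangles and values of 0 drawn left of the dotted line (Tnfsf18, where 2 of the 3 controls overlie each other). The KD triangles of Tnfrsf9 and Tnfsf9 lie left of all controls, those of Tnfsf10 and Tnfrsf12a lie right of them, and the groups of Fas, Tnfsf13, Tnfsf13b, Tnfrsf4, Tnfrsf8 and Tnfrsf14 overlap.

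Among the ligands, Tnfsf10 had the largest rise in level. It encodes TRAIL, a ligand that can trigger apoptosis in tumour cells and whose transcription interferons are known to raise. Its level was 1.59, 0.981 and 1.77 normalized CPM in the control libraries and 14.0, 13.4 and 12.7 in the KD libraries. The lowest KD library thus lay well above the highest control library, and the spread relative to the mean was wider among the controls, where the counts were only 37 to 67. The fitted increase was 9.19-fold, a log2 fold change of 3.20 (SE 0.17, adjusted p = 3.66e-18, edgeR).

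Tnfsf18, the ligand of the costimulatory receptor GITR, was the other ligand called higher, and it passed the expression filter through the KD group alone. It had 3, 0 and 0 counts in the control libraries and 23, 20 and 21 in the KD libraries. The groups did not overlap, but the counts were few in both. The ratio of the summed counts, 64 to 3, was 21.0 after scaling to library totals, with an exact 95% interval of 6.88 to 105 that covers counting error only. All control counts came from replicate 1, and the fitted log2 fold change of 4.25 (SE 0.85) was 7.42 without that library and 3.72 without control replicate 2 or without control replicate 3. Its receptor gene Tnfrsf18 had 2, 0 and 0 counts in the control and 1, 0 and 0 in the KD libraries, too few for a test.

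Tnfsf9, which encodes the ligand of the costimulatory receptor CD137, fell. Its level was 29.4, 30.4 and 30.4 CPM in the control and 9.93, 8.48 and 7.80 CPM in the KD libraries. The controls were nearly equal and every KD library lay under them, a 3.44-fold decrease (log2 fold change -1.78, SE 0.09, adjusted p = 1.30e-18, edgeR). Tnf itself, the inflammatory cytokine that names the family, was near the limit of detection with 24, 51 and 40 counts in the control and 18, 15 and 5 in the KD libraries. The groups did not overlap, and the fitted log2 fold change was -1.59 (SE 0.51, adjusted p = 0.00585, edgeR). This call rested on control replicate 2, the highest library: without it the log2 fold change was -1.33 with an adjusted p of 0.0558 (edgeR), and over all alternatives the adjusted p ran from 0.00447 to 0.0558.

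The remaining ligand genes gave few counts. Tnfsf13 (APRIL) and Tnfsf13b (BAFF), B cell survival factors, had 8 to 25 and 7 to 32 counts, their groups overlapped, and their log2 fold changes of -0.45 (SE 0.52) and 0.67 (SE 0.52) did not pass the test (adjusted p = 0.443 and 0.246, edgeR). The 9 untested ligand genes had at most 25 counts in any library, the highest being control replicate 2 of Lta. Tnfsf14 (LIGHT) had 16, 4 and 1 counts in the control and 0 in every KD library, and Tnfsf4, the OX40 ligand, had 12, 1 and 2 against 0. Most of the control counts of both genes came from replicate 1. Fasl, Tnfsf8, Tnfsf11 and Tnfsf12 had at most 2 counts in any library, and Ltb and Tnfsf15 had at most 6 and 10, with groups that overlapped. Tnfsf13os, with 6, 14 and 14 counts in the control and 6, 0 and 3 in the KD libraries, was also too low for the filter. Tnfsf12, Tnfsf13 and Tnfsf13os are uncertain because genes at this locus overlap and the use of strand in counting is not given in the sources used here.

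The tested death domain receptors changed by less than 2-fold, and in both directions. There were 4 of them, of 6 listed, and edgeR and its thresholds called 0 of them, against 9.98% of all genes called lower and 10.2% higher. At an adjusted and at an unadjusted p under 0.05, 2 were higher and 1 lower. Of all genes, 36.7% passed in each direction at the adjusted threshold. DESeq2's Wald test called 1, Ngfr, which the edgeR filter had left out. Tnfrsf10b, the TRAIL receptor that carries a death domain, was at 24.3, 25.2 and 24.8 CPM in the control and 34.8, 34.3 and 36.6 CPM in the KD libraries. Every KD library was higher, and the log2 fold change was 0.51 (SE 0.07, adjusted p = 3.63e-08, edgeR). Tnfrsf21, known as death receptor DR6, rose by a like amount, from 22.9, 24.1 and 24.4 to 35.2, 33.3 and 39.8 CPM (log2 fold change 0.60, SE 0.07, adjusted p = 4.81e-09, edgeR).

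Tnfrsf1a, the widely expressed TNF receptor with a death domain, fell from 128, 130.7 and 130.3 CPM to 102, 98.3 and 99.8 CPM. These groups did not overlap either, and the log2 fold change was -0.37 (SE 0.04, adjusted p = 4.98e-10, edgeR). Fas, the receptor of Fas ligand, was at 11.1, 12.2 and 13.9 CPM in the control and 12.7, 14.1 and 12.4 CPM in the KD libraries. The groups overlapped and the log2 fold change of 0.08 (SE 0.11) did not pass the test (adjusted p = 0.504, edgeR). Ngfr, the neurotrophin receptor of the family, had 0 counts in each control library and 6, 4 and 9 in the KD libraries. Tnfrsf25 (DR3) had 7, 5 and 6 counts in the control and 0, 0 and 2 in the KD libraries. The ratio of its summed counts was 9.14 (exact 95% interval 2.19 to 81.2, counting error only).

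The receptors that signal through Traf proteins held the largest decrease among the well-counted members (those with 100 counts or more in all libraries of either group). Of the 15 listed, 9 were tested, with 2 called lower and 1 higher (9.98% and 10.2% of all genes). Tnfrsf9, known as CD137, a costimulatory receptor of activated T cells, was at 209, 169 and 179 CPM in the control and 28.2, 24.3 and 23.1 CPM in the KD libraries. No KD library came near the lowest control. Tnfrsf9 fell 7.37-fold, a log2 fold change of -2.88 (SE 0.07, adjusted p = 5.73e-29, edgeR), and leaving out any single library gave log2 fold changes from -2.97 to -2.79. Cd40, a receptor best known on B cells and other antigen-presenting cells, was at 3.96, 2.49 and 3.20 CPM in the control and 1.24, 1.61 and 1.19 CPM in the KD libraries. It was lower in every KD library, with a log2 fold change of -1.26 (SE 0.27, adjusted p = 0.000107, edgeR).

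Tnfrsf12a, the receptor of the ligand TWEAK and also called Fn14, went the other way. Its level was 126, 124 and 129 CPM in the control and 269, 258 and 283 CPM in the KD libraries. The groups lay far apart relative to their spread, with a log2 fold change of 1.10 (SE 0.04, adjusted p = 3.80e-23, edgeR). The gene of its ligand, Tnfsf12, had 0 counts in the control libraries and 0, 2 and 0 in the KD libraries, so that a change in the ligand was not detectable. Its counts are also uncertain because of the overlapping genes at its locus.

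The other well-counted Traf-binding receptors were lower in the KD libraries by less than 2-fold. Tnfrsf19 (TROY), a receptor studied in epithelial stem cells and neurons, fell from 19.9, 19.6 and 19.3 to 12.3, 11.4 and 11.7 CPM (log2 fold change -0.73, SE 0.09, adjusted p = 7.30e-09, edgeR). Tnfrsf1b, the TNF receptor without a death domain, fell from 229, 208 and 209 to 175, 179 and 185 CPM (log2 fold change -0.26, SE 0.04, adjusted p = 3.75e-07, edgeR). In both genes every KD library was under every control. Ltbr, the receptor of lymphotoxin beta and LIGHT, was at 93.9, 93.5 and 91.7 CPM against 89.3, 82.1 and 85.5 CPM, and its small log2 fold change of -0.12 (SE 0.05, adjusted p = 0.0184, edgeR) did not pass without KD replicate 2 (-0.08, adjusted p = 0.144, edgeR) or without KD replicate 3 (-0.11, adjusted p = 0.0665). Over all alternatives its adjusted p ran from 0.00213 to 0.144.

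Tnfrsf4, Tnfrsf8 and Tnfrsf14, receptors known mainly from lymphocytes, did not pass the test. Tnfrsf14 (HVEM), the best counted of them with 64 to 115 counts, had a log2 fold change of 0.38 (SE 0.26, adjusted p = 0.198, edgeR). Tnfrsf4 had 7 to 21 counts with a log2 fold change of -0.01 (SE 0.56), and Tnfrsf8 had 5 to 14 counts with a log2 fold change of -0.13 (SE 0.60), so that changes of 2-fold in either direction lie within 2 standard errors. Tnfrsf13c, the BAFF receptor, was left out by the filter with 4, 4 and 1 counts in the control and 10, 19 and 11 in the KD libraries. The lymphocyte receptors Cd27, Tnfrsf13b, Tnfrsf17 and Tnfrsf18 and the RANKL receptor Tnfrsf11a had at most 2 counts in any library.

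**Figure D2:**
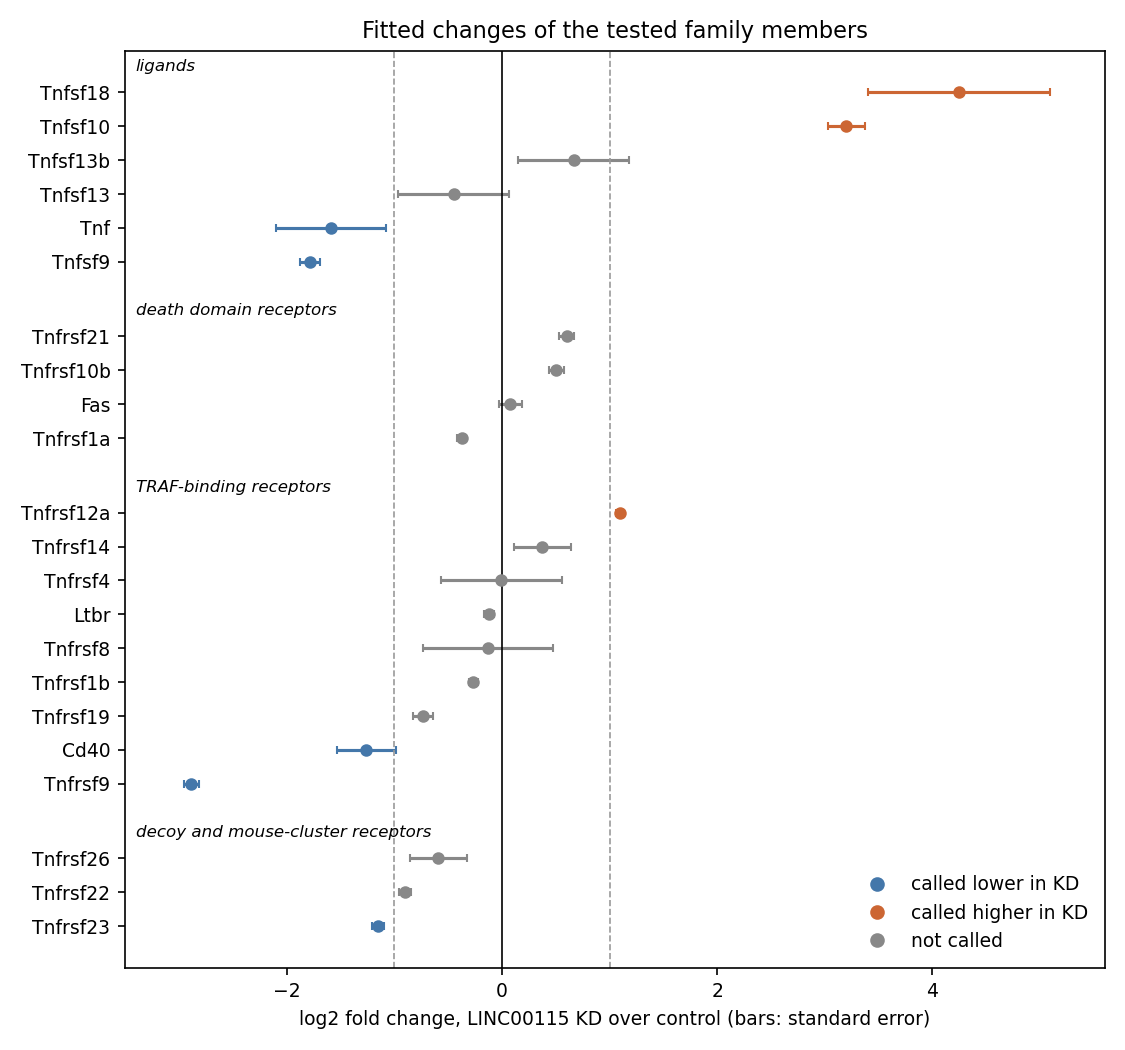
Log2 fold change of the 22 tested members, LINC00115 KD over control, with the standard error as bars, grouped by role. Blue marks the 5 genes called lower, orange the 3 called higher, and dashed lines a fold change of 2; the 4 tested death domain receptors lie between the dashed lines.

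Tnfrsf22 and Tnfrsf23 are mouse receptors that bind TRAIL as decoys, and they lie in a cluster with the related Tnfrsf26. None of these 3 symbols equals a current or older human gene symbol in the tables used, whereas 36 of the 41 members equal a current human symbol apart from case and Fasl an older one. Tnfrsf22 and Tnfrsf23 were well counted, with 1810 to 3794 and 2126 to 5754 counts. Whether the reads came from human or mouse transcripts was not tested.

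Tnfrsf23 was at 153, 129.8 and 128 CPM in the control and 62.8, 57.9 and 64.0 CPM in the KD libraries, and was called lower (log2 fold change -1.15, SE 0.05, adjusted p = 1.27e-19, edgeR). Tnfrsf22 was at 101, 88.9 and 86.6 CPM against 49.2, 50.8 and 47.7 CPM, a decrease just under 2-fold (log2 fold change -0.90, SE 0.05, adjusted p = 1.25e-16, edgeR). In both genes control replicate 1 was highest and the groups were well separated. Tnfrsf26 had 99, 99 and 96 counts in the control and 54, 74 and 67 in the KD libraries. Its log2 fold change of -0.59 (SE 0.27, adjusted p = 0.0460, edgeR) lost the threshold when any library other than KD replicate 2 was left out, with adjusted p-values of 0.0793, 0.0888 and 0.0718 without control replicates 1, 2 and 3, 0.167 without KD replicate 1 and 0.0727 without KD replicate 3. Tnfrsf22 and Tnfrsf23 are close paralogs, so reads may have been split between them in a way not known here. Tnfrsf11b, the soluble decoy osteoprotegerin, had 0 to 4 counts.

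Read counts of family members were also set against each other within a library, which does not depend on the scaling between libraries. These 5 ratios were chosen after the values were seen and restate the levels above, so they are given with no test. For Tnfrsf9 and its ligand Tnfsf9, both of which fell, there were 7.11, 5.57 and 5.89 receptor reads per ligand read in the control libraries and 2.84, 2.86 and 2.96 in the KD libraries. The receptor thus fell further than the ligand in every KD library, by 1.09 on the log2 scale.

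For TRAIL, Tnfrsf10b gave 15.3, 25.7 and 14.0 reads per Tnfsf10 read in the control and 2.49, 2.56 and 2.89 in the KD libraries. The ratio dropped by 2.74 on the log2 scale while both genes rose. Reads of Tnfrsf22 and Tnfrsf23 together were 10.4, 8.67 and 8.64 per Tnfrsf10b read in the control and 3.22, 3.17 and 3.05 in the KD libraries, a drop by 1.55 on the log2 scale. Relative to the TRAIL receptor with a death domain, the reads of these decoys were thus fewer in all 3 KD libraries. Within the pair, Tnfrsf23 gave 1.52, 1.46 and 1.48 reads per Tnfrsf22 read against 1.27, 1.14 and 1.34.

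In these 4 ratios all KD values lay under all control values. The ratio of Tnfrsf1b to Tnfrsf1a reads, the pair of TNF receptors, was 1.79, 1.60 and 1.60 in the control and 1.71, 1.82 and 1.86 in the KD libraries. These groups overlapped.

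**Figure D3:**
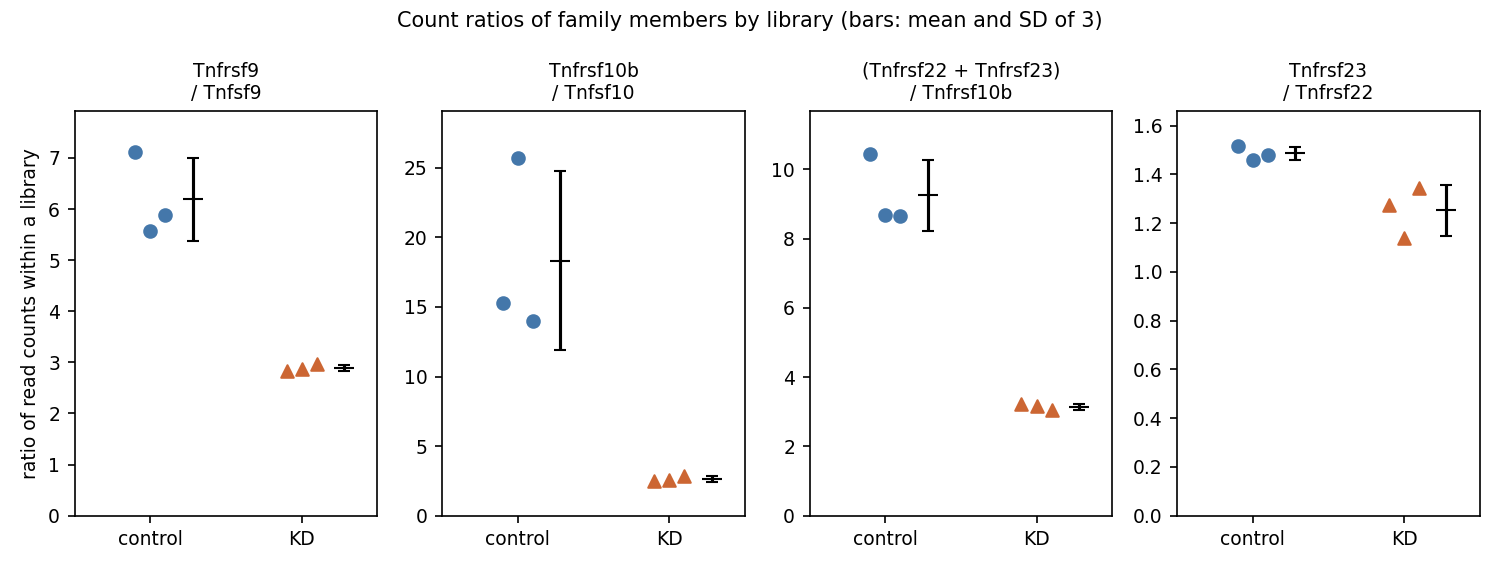
Ratios of read counts within each library for 4 pairs of family members, control as circles and LINC00115 KD as triangles, with the mean and SD of 3 libraries as bars; each vertical axis starts at 0. All KD values lie under all control values, for example 2.84 to 2.96 against 5.57 to 7.11 for Tnfrsf9 over Tnfsf9.

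Across the family, the 41 genes took 0.107% to 0.118% of the counts in the control and 0.0869% to 0.0908% in the KD libraries. Tnfrsf9 made up much of the net difference: the summed level was 1069 to 1161 CPM against 875 to 918 CPM with it, and 899.9 to 952 against 851 to 895 CPM without it. The sum also holds opposite changes, with Tnfrsf12a rising from a mean of 126 to 270 CPM and Tnfrsf23 falling from 137 to 61.6 CPM. The 13 well-counted members had a coefficient of variation between libraries of 1.12% to 28.7% in the control (median 3.41%) and of 1.80% to 12.5% in the KD group (median 4.71%). The widest was that of Tnfsf10 in the control, where its counts were lowest. Of the 22 tested members, 11 had all KD values under all control values and 5 had all of them above, and over all genes tested the share was 37.8% in each direction.

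Of 4 family genes with other names that the rule leaves out, Eda2r, a receptor of ectodysplasin A2 and a known p53 target, passed the filter through the KD group alone. It had 0, 0 and 1 counts in the control and 55, 39 and 19 in the KD libraries. The ratio of its summed counts was 111, with an exact 95% interval of 19.6 to 4436. That interval covers counting error only and not the spread between libraries, and Eda2r was chosen after its values were seen. Relt, with 281 to 391 counts, had a log2 fold change of 0.25 (SE 0.12, adjusted p = 0.0681, edgeR), and Eda and Edar had at most 1 count.

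The proteins that carry the signal from the receptors were read from a list of 31 adaptors, kinases, ubiquitin ligases and inhibitors, all of which were tested. The edgeR thresholds called 1 higher and 0 lower, as did DESeq2, where edgeR called 10.2% and 9.98% of all genes. At an unadjusted p under 0.05, 12 were higher and 12 lower, and at an adjusted p under 0.05, 12 and 11, where 36.7% of all genes passed in each direction. At the adjusted threshold the shares of the list were near those of all genes. The median log2 fold change of the list was -0.03. The gene called higher was Cflar, which encodes the caspase-8 inhibitor c-FLIP. It rose from 72.1, 73.4 and 68.9 to 151, 156 and 162 CPM (log2 fold change 1.13, SE 0.04, adjusted p = 4.18e-22, edgeR).

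Other members of this list, chosen after their values were seen, passed the test by less than 2-fold. Traf3, an inhibitor of the alternative NF-kB pathway, rose (log2 fold change 0.76), as did Bid (0.90), which links death receptors to mitochondria. Of the linear ubiquitin ligase subunits, Rbck1 (0.61) and Rnf31 (0.67) rose and Sharpin (-0.52) fell. Traf1 (-0.56), Traf4 (-0.71), Birc2 (-0.43) and Birc3 (-0.68), the last pair ubiquitin ligases of the receptor complexes, fell. So did the inhibitors of NF-kB signaling Tnfaip3 (-0.34) and Tnip1 (-0.77). The kinase gene Ripk1 (-0.06) and Casp8 (-0.09), the initiator caspase, did not pass (adjusted p = 0.325 and 0.172, edgeR).

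Of 7 genes for the cleavage and release of ligands and receptors, edgeR and DESeq2 called 0, where edgeR called 9.98% of all genes lower and 10.2% higher. At an adjusted and at an unadjusted p under 0.05, 4 were lower and 3 higher (36.7% of all genes in each direction at the adjusted threshold). The median log2 fold change was -0.15. Adam17, the main TNF sheddase, and Adam10 fell by like amounts (log2 fold changes -0.45 and -0.44, SE 0.04 for both).

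A list of 30 genes that TNF is known to induce, of which 29 were tested, held 9 called higher and 2 called lower, against 10.2% and 9.98% of all genes, with a median log2 fold change of 0.20. Without the fold threshold 18 were higher and 11 lower, against 36.7% of all genes in each direction. Cxcl10, a chemokine that interferons also induce, was at 8.52, 6.73 and 10.2 CPM in the control and 106, 123 and 108 CPM in the KD libraries (log2 fold change 3.73, SE 0.08). It was followed by the chemokine Ccl5 (2.92, SE 0.07) and the adhesion molecule Icam1 (2.83, SE 0.21). The 2 called lower were Mmp9, a matrix protease, from 149.5, 147 and 149 to 25.3, 26.6 and 24.1 CPM (log2 fold change -2.55, SE 0.05), and the early response gene Ier3 (-1.78, SE 0.04). The NF-kB inhibitor Nfkbia fell slightly (-0.26, SE 0.04). Many of these genes are also induced by other stimuli.

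**Figure D4:**
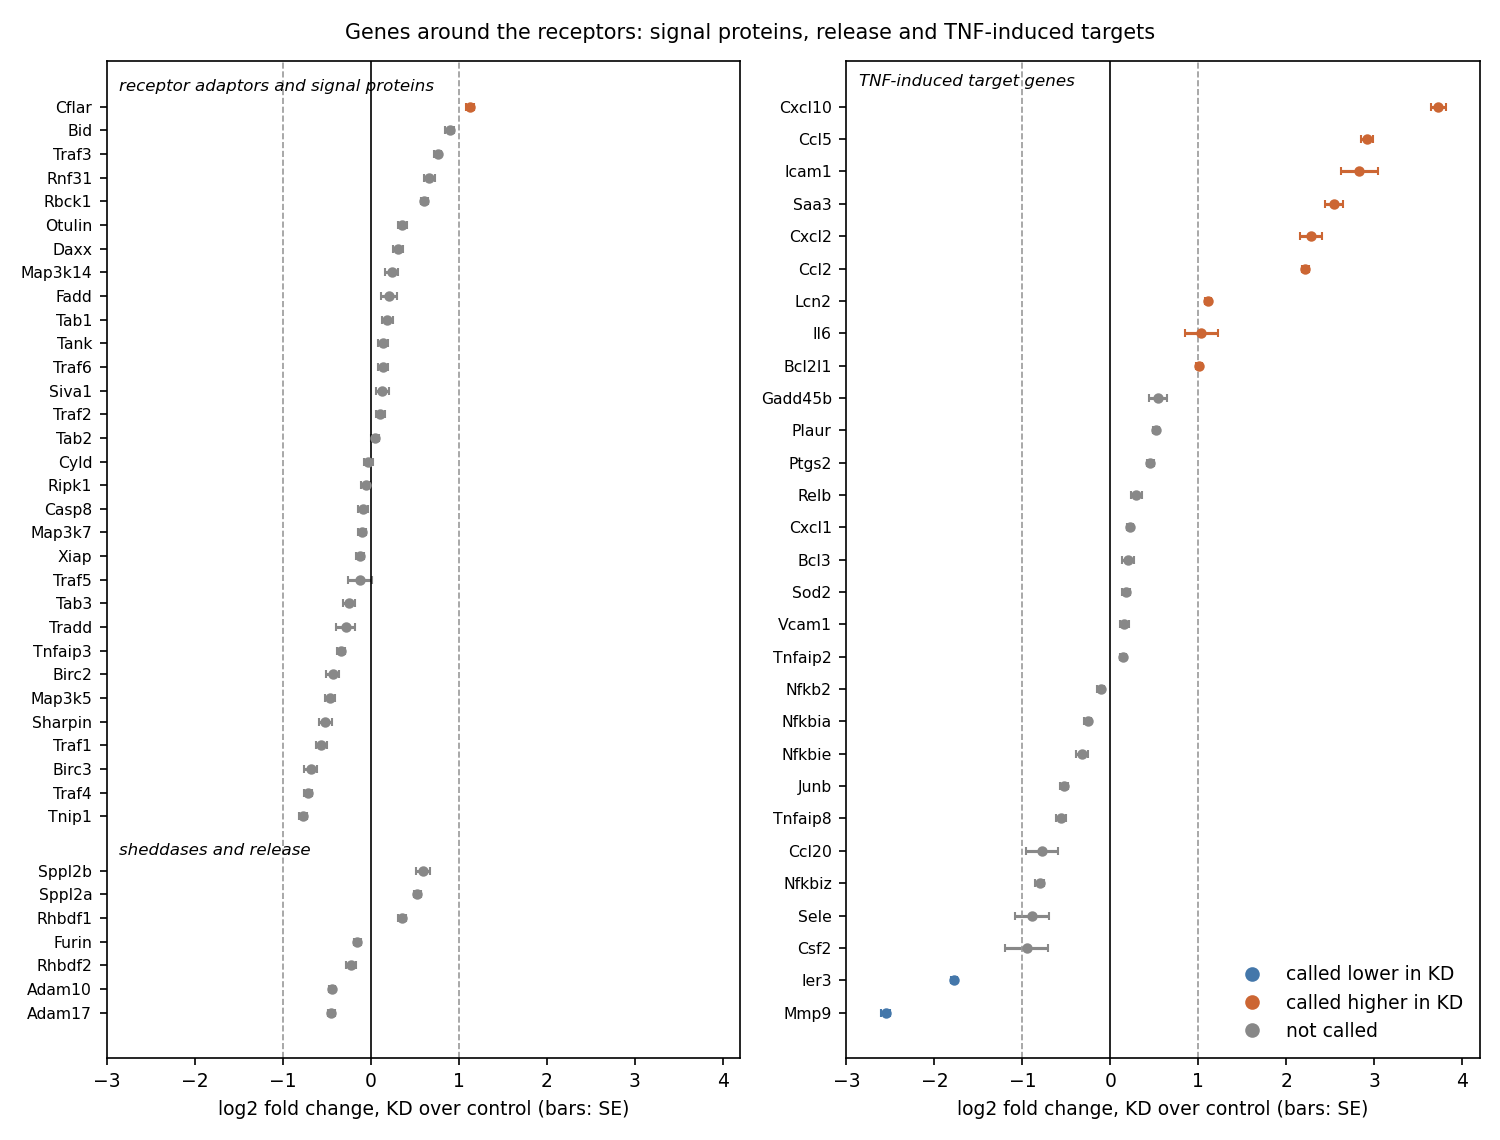
Log2 fold change, LINC00115 KD over control, with the standard error as bars, of the adaptors and signal proteins and the genes for release (left) and of the TNF-induced target genes (right); dashed lines mark a fold change of 2. On the left only Cflar is called, at 1.13, and on the right the changes run from -2.55 for Mmp9 to 3.73 for Cxcl10, with 9 genes called higher and 2 lower.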

How the data were processed

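Total RNA of 6 libraries was sequenced. The authors trimmed adapters, mapped reads with HISAT2 (hg19 in the paper's methods, hg38 in the submitters' processing notes, which also name featureCounts and DESeq2) and deposited whole-number read counts per gene symbol without normalization; annotation and use of strand are not given in the sources used here. Totals were 36979221 to 38799331 counts per library, and intervals cover counting error only. Chi-square over its degrees of freedom was 3.88 to 7.60 for pairs of libraries within a group. Such values show a spread beyond counting error but cannot tell whether the libraries came from separate cultures. Each library was counted as a sample of its own.

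Counts of all genes were filtered with filterByExpr (minimum count 10, minimum total 15), scaled by TMM and tested in R 4.3.3 with edgeR 4.0.16 (quasi-likelihood, group only). Standard errors are the log2 fold change over the square root of F. Alternatives were other scalings and filters, each library left out, a replicate block and DESeq2 1.42.0. DESeq2 without independent filtering was added after seeing the data. On counts simulated for this comparison (13491 genes tested, 200 changed by 1.5 log2 units), 199 were recovered with 0 false calls. The changed genes lay above a minimum mean count, with the same dispersion for all genes and far fewer changes than called in the data. This recovery therefore does not extend to members with few counts such as Tnfsf18.

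The members and lists were chosen with earlier results of these data known. Values per library are given for members that were called, had 100 counts or more in all libraries of either group, or pair with a called member. Of other lists, the 3 called genes with the largest change each way are named, if all libraries of their higher group had 100 counts or more. Eda2r and markers named beside these were chosen after their values were seen. Sequences are not shown, since no mouse sequences were used.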

Additional observations from a re-analysis of the deposited data

How the results depend on the processing

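The 5 members called lower and 3 called higher were the same genes under DESeq2's size factors, upper quartile scaling and library size alone, which moved the median of all genes by at most 0.05 (log2). Without the fold threshold the counts were 11 lower and 5 higher members, 11 lower and 12 higher adaptors and signal proteins, and 11 lower and 18 higher target genes. Members called higher were 5 without a low-count filter, with DESeq2's Wald test, and with DESeq2 without independent filtering, a setting chosen after seeing the data. In each of these 3 settings all 8 calls remained, and Ngfr, Tnfrsf13c, Tnfsf14 and Tnfsf4, all left out by the filter, were added. A minimum of 10 counts in every library removed Tnf and Tnfsf18 from the test. With each library left out in turn, 4 to 7 members were lower and 3 to 4 higher. Of 280 log2 fold changes recomputed for the 22 members, 274 kept their direction and their call. Tnf lost its call without control replicate 2. Tnfrsf4 turned to 0.06, 0.22 and 0.32 without control replicate 1, control replicate 2 and KD replicate 2, and Tnfrsf8 to 0.02 and 0.22 without control replicate 1 and KD replicate 3; with any single library left out, Tnfrsf4 ran from -0.35 to 0.32 and Tnfrsf8 from -0.34 to 0.22, and neither passed the test in any setting. The cause was not tested.

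With the replicate number as a block, 5 members were lower and 3 higher, the adaptors and signal proteins called were 0 lower and 1 higher, and the target genes 2 lower and 9 higher. Tnfrsf26 then had an adjusted p of 0.0606 (edgeR). The deviations of same-numbered libraries from their group means correlated at 0.014, -0.019 and -0.020, and those of differently numbered ones at -0.018 to 0.038. Same-numbered libraries thus showed no shared deviation, which cannot exclude a shared culture or batch.

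Few counts limit the 19 untested members, 9 of which had at most 3 counts in any library.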
